A study of Homo sapiens with 30 samples.

Results

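Small nucleolar RNA host genes carry the sequences of small nucleolar RNAs (snoRNAs) inside their introns, and most of them make a spliced RNA with no long open reading frame. The 10 members described here were chosen by symbol from the 27630 gene rows of the count tables: GAS5, SNHG1, SNHG5, SNHG6, SNHG7, SNHG8, SNHG12, SNHG15, SNHG16 and ZFAS1. RNA was sequenced from HEK293FT, a fast-growing line of human embryonic kidney cells that expresses the SV40 large T antigen. Per the labels, every library came from asynchronous cells that had been transfected, with Lipofectamine 2000, with a construct joining the peroxidase APEX2 to lamin B1, so the fraction libraries carry the fusion as well. The 4 groups of 2 libraries each were a nuclear fraction, a cytosolic fraction, a native preparation of RNA tagged by APEX2 at the nuclear lamina (native lamina), and the same kind of preparation from cells fixed with paraformaldehyde (PFA lamina). No library of untransfected cells, and none of an APEX2 directed elsewhere, was analysed here. Nothing in the labels says whether the 2 libraries of a group came from separate cultures, so each p-value below measures only the spread between these libraries.

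As background, a host transcript is made by RNA polymerase II and spliced. The released intron is debranched and trimmed back to the snoRNA, which is bound by its core proteins and stays in the nucleolus, where box C/D snoRNAs guide ribose methylation and box H/ACA snoRNAs guide pseudouridylation of ribosomal RNA. The joined exons leave the nucleus, and several of these spliced RNAs are known to be read briefly by ribosomes and then destroyed by nonsense-mediated decay. Many hosts begin with a terminal oligopyrimidine (TOP) tract, a C followed by a run of pyrimidines, as ribosomal protein mRNAs do. GAS5, named for its rise in growth-arrested cells, is the textbook case of a host whose spliced RNA accumulates when translation slows.

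The start sites of 8 of the 10 members could be read from the RefSeq promoter table (GRCh38.p14), and those of SNHG6 and SNHG15 were not matched. The 5 windows below are shown because they differ in 2 features of the start, which SNHG5, SNHG12 and ZFAS1 have both of, SNHG16 1 of and SNHG1 neither. Each has 40 bases before the annotated start and 30 bases from it and is written along the transcribed strand. Capitals mark a pyrimidine run, a C followed by at least 4 pyrimidines and opening no more than 5 bases from the start, and the letters TATAA where they begin 20 to 40 bases before it.
SNHG5: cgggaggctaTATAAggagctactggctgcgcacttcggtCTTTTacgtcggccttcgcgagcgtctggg
SNHG12: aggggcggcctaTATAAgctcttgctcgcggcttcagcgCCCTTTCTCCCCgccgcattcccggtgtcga
ZFAS1: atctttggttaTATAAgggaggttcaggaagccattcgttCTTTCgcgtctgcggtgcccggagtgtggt
SNHG16: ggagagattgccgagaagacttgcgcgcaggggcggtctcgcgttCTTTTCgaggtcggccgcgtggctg
SNHG1: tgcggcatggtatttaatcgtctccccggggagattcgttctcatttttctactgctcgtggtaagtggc
The windows lie at chr6:85678704-85678773 on the minus strand, chr1:28581844-28581913 on the minus strand, chr20:49278602-49278671 on the plus strand, chr17:76557724-76557793 on the plus strand and chr11:62855856-62855925 on the minus strand, in that order. A pyrimidine run was present in 6 of the 8 matched starts (SNHG5, SNHG7, SNHG8, SNHG12, SNHG16 and ZFAS1), against 21.1% of all 27305 starts of the table. The run of SNHG12 was 12 bases long, and those of the other members with a run were 5 or 6. TATAA on the transcribed strand stood 28 to 34 bases before the start in 5 of the 8 (SNHG5, SNHG7, SNHG8, SNHG12 and ZFAS1), against 4.22% of all starts. Counted on both strands anywhere in the 300 bases, TATAA was in 6 of the 8 and in 21.1% of all starts. These motifs were chosen with the sequences in view, a match is a description and not a known site, and the annotated start of GAS5 in that build belongs to a longer gene (5145 bases) than the row of the count tables (4087 bases).

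Total counts ran from 2321291 to 8557777 per library, with PFA replicate 2 the shallowest, and a floor of 3 counts equals 0.351 to 1.29 CPM (counts per 1000000 counts of the library). The members held 36 to 2623 counts per library, and all 10 passed the filter on low counts that left 16504 genes tested. LMNB1, the gene of the transfected fusion, stood at 3225 to 6371 CPM in the fractions and at 26122 to 96067 CPM in the lamina libraries. MALAT1, a nuclear RNA, was at 10942 and 16493 CPM in the nuclear fraction, 794 and 973 in the cytosolic one, 5446 and 12224 in the native lamina and 594 and 3074 in the PFA lamina. All 7 kidney and neural lineage markers of the line had counts in every group. Their summed levels were 363 to 393 CPM in the nuclear and 1611 to 1806 CPM in the cytosolic fraction. They were 765 to 904 CPM in the native and 618 to 775 CPM in the PFA lamina. VIM alone was at 276 and 300 CPM in the nuclear and 1274 and 1437 CPM in the cytosolic fraction. The highest levels of PAX2, LHX1 and EYA1 in any library were 6.24, 8.53 and 10.3 CPM. Of 6 markers of leukocytes, endothelium, liver and red cells, PTPRC, CD3E and HBB were at 0 everywhere, and the 6 together never exceeded 1.84 CPM. Replicates correlated at 0.960, 0.968, 0.966 and 0.911 in log2 CPM in the nuclear, cytosolic, native and PFA group. Values are CPM after TMM scaling, so each is relative to the other RNA of its library. In such pools, more RNA per cell and more cells holding it cannot be told apart.

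Between the nuclear and the cytosolic fraction, the members went both ways. A host count holds reads over its exons, so spliced host RNA cannot be told from an unspliced precursor. SNHG12 and GAS5 were higher in the nuclear fraction, SNHG16 and SNHG6 were lower there, and the other 6 did not pass the test. By comparison, 26.1% of the 16504 genes tested were called higher in the nuclear fraction and 21.2% lower, so 2 and 2 of 10 members stand close to the shares of all genes. The members' median log2 fold change was -0.01, and that of all genes tested was 0.13. The genes are taken below by their cargo, first the 6 that carry mainly box C/D snoRNAs and then the 4 that carry mainly box H/ACA snoRNAs. Calls are from edgeR's quasi-likelihood test, with Benjamini-Hochberg adjustment over all genes tested and a threshold of 0.05.

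GAS5 (chr1:173833039-173837125 in hg19, minus strand, 632 exonic bases) carries 11 small RNA rows, the most of the 10. Its normalised level was 140.0 and 154.2 CPM in the nuclear fraction and 43.9 and 86.1 CPM in the cytosolic fraction. Both nuclear libraries lay above both cytosolic ones, and cytosolic replicate 1 was the lowest of all 8 libraries. The log2 fold change was 1.18 (SE 0.32, edgeR adjusted p = 0.0091). The call rested on cytosolic replicate 1 and nuclear replicate 2, since without the first the log2 fold change was 0.75 (edgeR adjusted p = 0.113) and without the second it was 1.09 (edgeR adjusted p = 0.0521).

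SNHG1 (chr11:62619460-62623360, minus strand, 1118 exonic bases) is the host of SNORD22 and of 7 neighbours from SNORD25 to SNORD31, and is known for exons that are poorly conserved while its introns are not. It stood at 129.7 and 170.6 CPM in the nuclear fraction and at 81.1 and 138.3 CPM in the cytosolic fraction. The groups overlapped, and the difference of 0.46 (SE 0.31) did not pass the test. SNHG5 (chr6:86386725-86388451, minus strand, 507 exonic bases), the host of SNORD50A and SNORD50B, was close to level, at 28.6 and 34.99 CPM against 34.8 and 34.0 CPM. ZFAS1 (chr20:47894715-47905795, plus strand, 1028 exonic bases), which starts head to head with ZNFX1 and carries the SNORD12 family, was at 32.9 and 34.6 CPM in the nuclear fraction. Its cytosolic libraries, at 30.4 and 68.8 CPM, lay on either side of those values.

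SNHG6 (chr8:67834165-67837777, minus strand, 472 exonic bases), the host of SNORD87, was at 7.46 and 13.9 CPM in the nuclear and 25.0 and 46.0 CPM in the cytosolic fraction. The groups did not overlap, and the log2 fold change was -1.73 (SE 0.41, edgeR adjusted p = 0.0048). SNHG16 (chr17:74553846-74561430, plus strand, 2538 exonic bases), the host of the SNORD1 family, was the member with the most counts in the cytosolic fraction. It stood at 81.9 and 151.1 CPM in the nuclear and 279.7 and 553.7 CPM in the cytosolic fraction. The groups did not overlap, though the 2 cytosolic libraries lay farther from each other on a log scale than cytosolic replicate 1 lay from nuclear replicate 2. The log2 fold change was -1.84 (SE 0.48, edgeR adjusted p = 0.0077). For both genes the call was lost without cytosolic replicate 2 and without nuclear replicate 1. Without cytosolic replicate 2 the log2 fold changes were -1.25 for SNHG6 and -1.29 for SNHG16 (edgeR adjusted p = 0.0657 and 0.0856), and without nuclear replicate 1 they were -1.35 and -1.47 (edgeR adjusted p = 0.0628 and 0.0873).

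Among the 4 hosts of mainly box H/ACA snoRNAs, SNHG12 (chr1:28905050-28909495, minus strand, 2128 exonic bases), which carries SNORA61, SNORA44, SNORA16A and SNORD99, had the largest nuclear excess of the 10 members. It was at 78.8 and 64.1 CPM in the nuclear and 12.01 and 15.6 CPM in the cytosolic fraction, a wide gap beside the spread within either pair. The log2 fold change was 2.38 (SE 0.39, edgeR adjusted p = 0.0009), and the call held when any 1 library was left out. SNHG7 (chr9:139619046-139622636, minus strand, 2676 exonic bases), with SNORA17A and SNORA17B, was at 92.6 and 106.3 CPM against 81.0 and 104.5 CPM. SNHG15 (chr7:45022627-45026259, minus strand, 803 exonic bases), with SNORA9, was at 29.98 and 48.2 CPM against 35.4 and 34.2 CPM. SNHG8 (chr4:119199917-119200978, plus strand, 619 exonic bases), with SNORA24, was the member with the lowest counts and stood at 10.9 and 6.69 CPM against 8.68 and 15.8 CPM. The fractions overlapped for each of these 3 genes, and none passed the test.

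Both libraries of one fraction lay above both of the other for 4 of the 10 members, 2 in each direction, the same 4 that were called. Over all genes tested, both nuclear libraries lay above both cytosolic ones for 42.5% and below them for 35.4%.

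**Figure D1:**
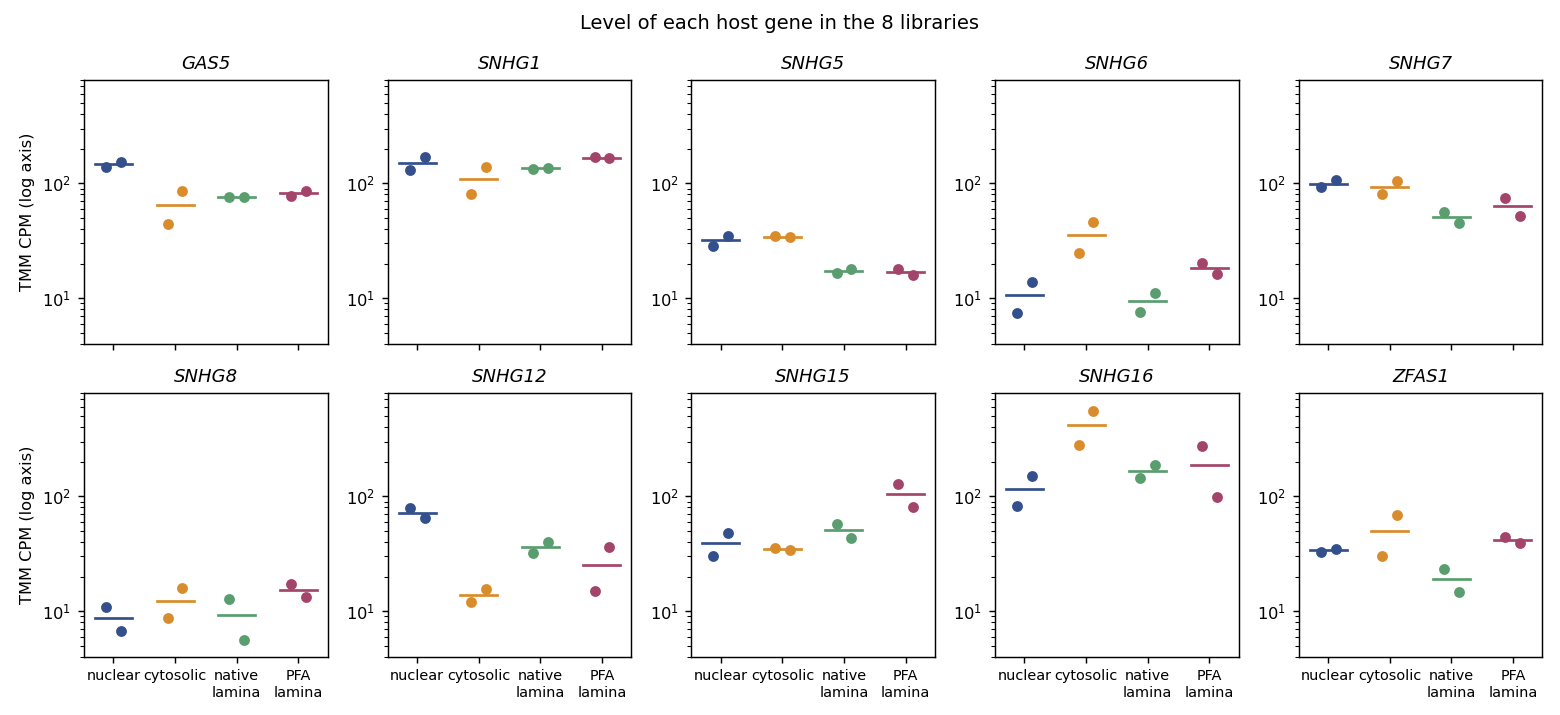
TMM-scaled CPM (log axis) of each of the 10 host genes in the 8 libraries, by group; each point is a library and each bar is the mean of the 2 libraries of a group. SNHG12 and GAS5 are highest in the nuclear fraction, SNHG6 and SNHG16 in the cytosolic fraction and SNHG15 in the PFA lamina, while SNHG5 and SNHG7 are lower in all 4 lamina libraries than in any fraction library. How many of all genes share these patterns was not counted.

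The native lamina preparation was then compared with each fraction, to ask which host RNAs it holds more or less of than the compartments on either side of the envelope. Both comparisons share the native libraries, so their values are given side by side. The mean of the native libraries lay between those of the fractions for GAS5, SNHG1, SNHG8, SNHG12 and SNHG16, below both for SNHG5, SNHG6, SNHG7 and ZFAS1, and above both for SNHG15. Against the nuclear fraction no member passed the edgeR test, where 3.87% of all genes tested were called higher and 3.44% lower. At an unadjusted edgeR p under 0.05, 2538 of the 16504 genes tested were lower and 2216 higher in the native lamina. These included 5 members, all with a lower level in the native lamina. They were GAS5 (-0.95), SNHG5 (-0.89), SNHG7 (-0.97), SNHG12 (-0.99) and ZFAS1 (-0.82), and their adjusted edgeR p values ran from 0.0576 to 0.166. DESeq2's Wald test called 2 of them lower (GAS5, adjusted p = 0.0403, and SNHG7, adjusted p = 0.0213), beside 4.67% of all genes. For these same 5 members, both native libraries lay below both nuclear ones, as they did for 35.1% of all genes tested. Without PFA replicate 1, the log2 fold changes of 4 of them were -0.93 (GAS5), -0.86 (SNHG5), -0.94 (SNHG7) and -0.96 (SNHG12). Without PFA replicate 2 these were -0.94, -0.88, -0.95 and -0.97 in the same order. In a fit of only the 4 libraries compared, edgeR called these same 4 lower (adjusted p from 0.0166 to 0.0449). The share of all genes called in that fit was not set beside them. Whether these members passed thus depended on the presence of the PFA libraries in the fit.

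Against the cytosolic fraction, edgeR called SNHG12 higher in the native lamina and SNHG5, SNHG6 and ZFAS1 lower, beside 6.99% of all genes called higher and 6.77% lower. SNHG12 was at 32.2 and 40.01 CPM in the native lamina, above both cytosolic and below both nuclear libraries, and differed from the cytosolic fraction by 1.39 on the log2 scale (SE 0.38, edgeR adjusted p = 0.0299). SNHG5 was at 16.5 and 17.8 CPM, below all 4 fraction libraries, and its difference was -1.01 on that scale (SE 0.28, edgeR adjusted p = 0.0346). SNHG6 was at 7.57 and 11.2 CPM, within the range of the nuclear fraction and below both cytosolic libraries, and its difference was -1.92 (SE 0.41, edgeR adjusted p = 0.0123). ZFAS1 was at 23.4 and 14.6 CPM, below all 4 fraction libraries, and its difference was -1.37 (SE 0.38, edgeR adjusted p = 0.0311). SNHG16, at 145.4 and 185.8 CPM, lay below both cytosolic libraries, but its difference of -1.33 missed the threshold (edgeR adjusted p = 0.0731). SNHG7 missed it as well, at 56.1 and 45.5 CPM, below all 4 fraction libraries, with a difference of -0.87 (edgeR adjusted p = 0.0614). The share of all genes with lamina libraries below all 4 fraction libraries was not counted, here or for the PFA lamina. Whether that position is particular to these members was therefore not tested.

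These calls were close to the threshold. Those of ZFAS1 and SNHG6 were lost without cytosolic replicate 2, where the log2 fold changes were -0.68 and -1.42 (edgeR adjusted p = 0.313 and 0.124). They were lost as well without native replicate 2 for ZFAS1 (-1.08, edgeR adjusted p = 0.203) and without native replicate 1 for SNHG6 (-1.66, edgeR adjusted p = 0.0694). The call of SNHG12 was lost without any one of the 4 libraries compared (log2 fold changes of 1.20 to 1.58, edgeR adjusted p from 0.0514 to 0.186). That of SNHG5 was lost without any one of the 6 native and fraction libraries (-1.06 to -0.96, edgeR adjusted p from 0.0558 to 0.151).

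In the PFA lamina, SNHG15 stood out from the other members. It was at 128.4 and 81.5 CPM there, against 29.98 to 48.2 CPM in the 4 fraction libraries and 57.8 and 43.2 CPM in the native lamina. Both PFA libraries lay above all 6 others, a pattern that was not counted over all genes. The log2 fold change was 1.43 over the nuclear fraction (SE 0.33, edgeR adjusted p = 0.0153) and 1.60 over the cytosolic fraction (SE 0.33, edgeR adjusted p = 0.0471). It was the only member called above both fractions in either preparation, where 0.0485% of all genes tested were so called in the PFA and 0.0424% in the native lamina. Over the nuclear fraction the call was lost without PFA replicate 1 (1.07, edgeR adjusted p = 0.0825) and without nuclear replicate 1 (1.12, edgeR adjusted p = 0.166). Over the cytosolic fraction it was lost without any one of the 4 fraction libraries (1.56 to 1.61, edgeR adjusted p from 0.0688 to 0.289).

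Against the nuclear fraction, SNHG12 and SNHG5 were called lower in the PFA lamina, beside SNHG15 called higher. In that comparison 9.63% of all genes tested were called higher and 7.81% lower. SNHG12 was at 14.9 and 36.0 CPM, a log2 difference of -1.52 (SE 0.38, edgeR adjusted p = 0.0202). PFA replicate 1 lay at the cytosolic level and PFA replicate 2 at the native level. SNHG5 was at 17.9 and 15.8 CPM, below all 4 fraction libraries, a log2 difference of -0.91 (SE 0.29, edgeR adjusted p = 0.0475). The call of SNHG12 was lost without PFA replicate 1 (-0.98, edgeR adjusted p = 0.125), without nuclear replicate 1 (-1.37, edgeR adjusted p = 0.145) or without nuclear replicate 2 (-1.65, edgeR adjusted p = 0.0611). The call of SNHG5 was lost without any one of the 8 libraries (-1.05 to -0.75, edgeR adjusted p from 0.0696 to 0.235). Against the cytosolic fraction SNHG15 was the only member called, beside 0.527% of all genes tested called higher and 0.145% lower.

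The 2 PFA libraries differed most for SNHG16, at 275.2 and 98.05 CPM. PFA replicate 1 lay at the level of cytosolic replicate 1, and PFA replicate 2 lay between the nuclear libraries. The same pair also differed in MALAT1, at 594 and 3074 CPM, and in NEAT1, at 106.2 and 744.0 CPM, and whether this bears on SNHG16 was not tested. Without PFA replicate 1, edgeR called SNHG16 lower than in the cytosolic fraction (adjusted p = 0.0057), and without PFA replicate 2 it called SNHG16 higher than in the nuclear fraction (adjusted p = 0.0237). SNHG7 lay below all 4 fraction libraries in both PFA libraries, at 74.7 and 51.8 CPM, and passed neither test.

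Between the PFA and the native lamina, edgeR called no member and none of the 16504 genes tested (0.0% in either direction; the smallest adjusted p was 0.257). At an unadjusted edgeR p under 0.05 there were 897 genes with a higher and 923 with a lower level in the PFA lamina, and DESeq2's Wald test called no member, beside 0.442% of all genes called higher and 0.909% lower. The unadjusted p was under 0.05 for 3 members, all with the higher level in the PFA lamina. These were SNHG15, with a difference of 1.06 (SE 0.32), ZFAS1, with 1.13 (SE 0.38) and levels of 44.3 and 38.9 CPM against 23.4 and 14.6 CPM, and SNHG6, with 0.98 (SE 0.41) and levels of 20.3 and 16.2 CPM against 7.57 and 11.2 CPM. Both PFA libraries lay above both native ones for 6 of the 10 members, where 19.9% of all genes tested did so, and for none did both lie below, as 18.7% of all genes did. The other 3 of those 6 were GAS5, SNHG1 and SNHG8, whose differences were 0.11, 0.32 and 0.72. Without PFA replicate 2, the shallowest library, SNHG15 was called higher (edgeR adjusted p = 0.0305).

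**Figure D2:**
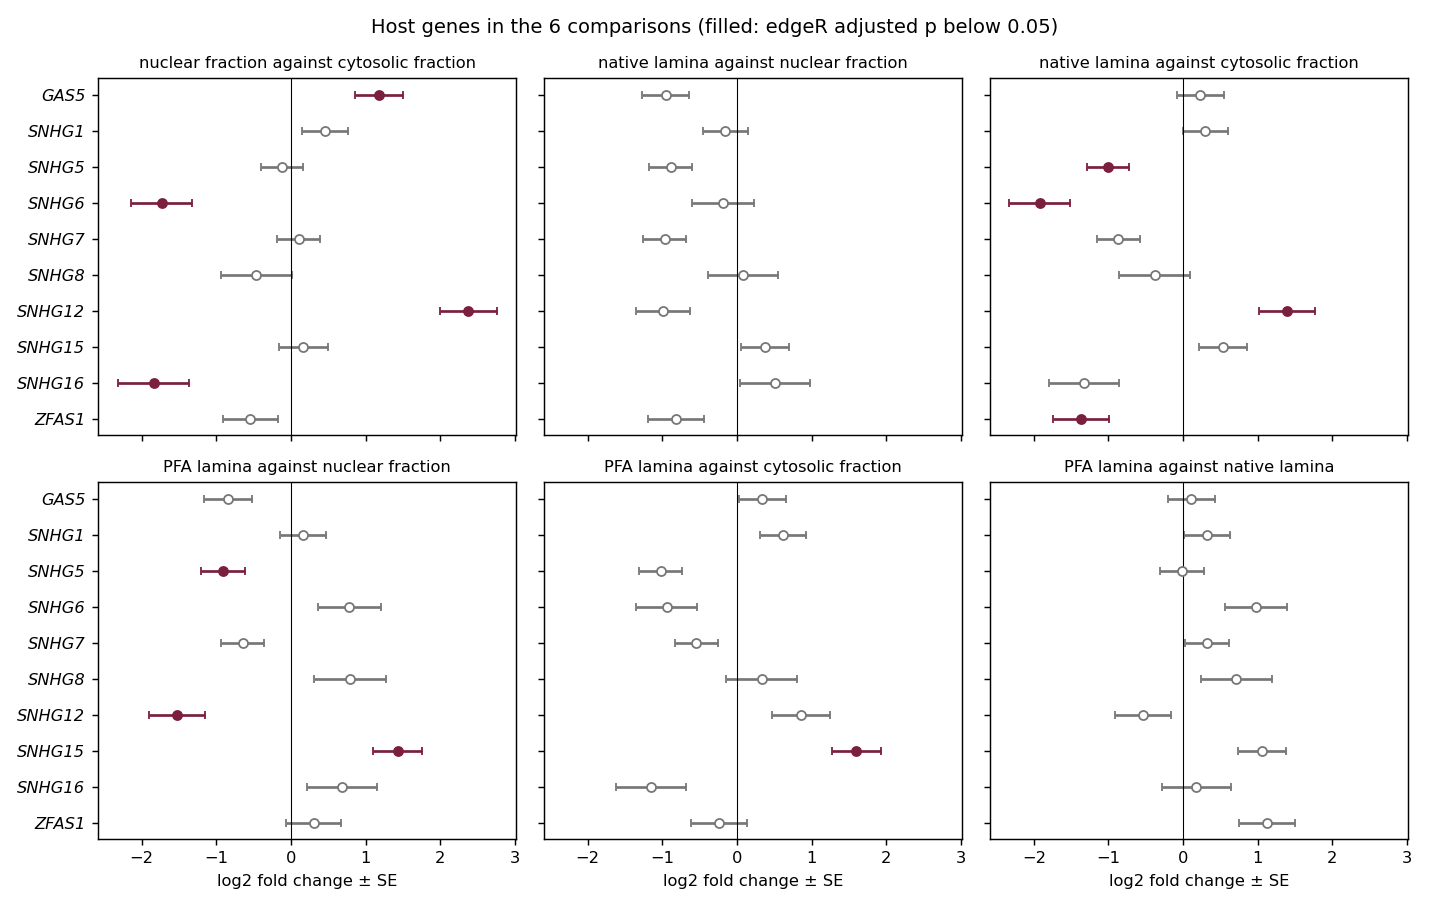
Log2 fold change (horizontal axis) with its standard error for each host gene in the 6 comparisons; filled points have an edgeR adjusted p below 0.05 over all genes tested. Of the 12 filled points 4 are in the nuclear against cytosolic comparison, 4 in native lamina against cytosolic, 3 in PFA lamina against nuclear and 1 in PFA lamina against cytosolic.

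Summed over the 10 members, the host genes took a small share of each library. The share was lowest at 0.0625% in nuclear replicate 1 (95% Wilson interval 0.0606% to 0.0644%) and highest at 0.0896% in cytosolic replicate 2 (0.0872% to 0.0920%). The make-up of that share differed between the fractions. SNHG16 made up 12.9% and 19.3% of the members' counts in the nuclear libraries, while its cytosolic shares were 44.3% and 50.5%, with 25.9% and 32.2% in the native and 32.8% and 16.2% in the PFA lamina. GAS5 made up 22.1% and 19.6% of the nuclear libraries' member counts and 6.95% and 7.85% of the cytosolic ones', with 13.5% and 13.2% in the native and 9.31% and 14.2% in the PFA lamina. SNHG1 was more even, at 20.5% and 21.7%, 12.8% and 12.6%, 23.7% and 23.7%, and 20.1% and 27.6% in the same order. SNHG15 was 4.74% and 6.14% in the nuclear and 5.60% and 3.12% in the cytosolic libraries, 10.3% and 7.50% in the native and 15.3% and 13.5% in the PFA lamina. The intervals, here and below, cover counting error only, since without molecular identifiers PCR copies of 1 molecule cannot be told from separate ones.

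**Figure D3:**
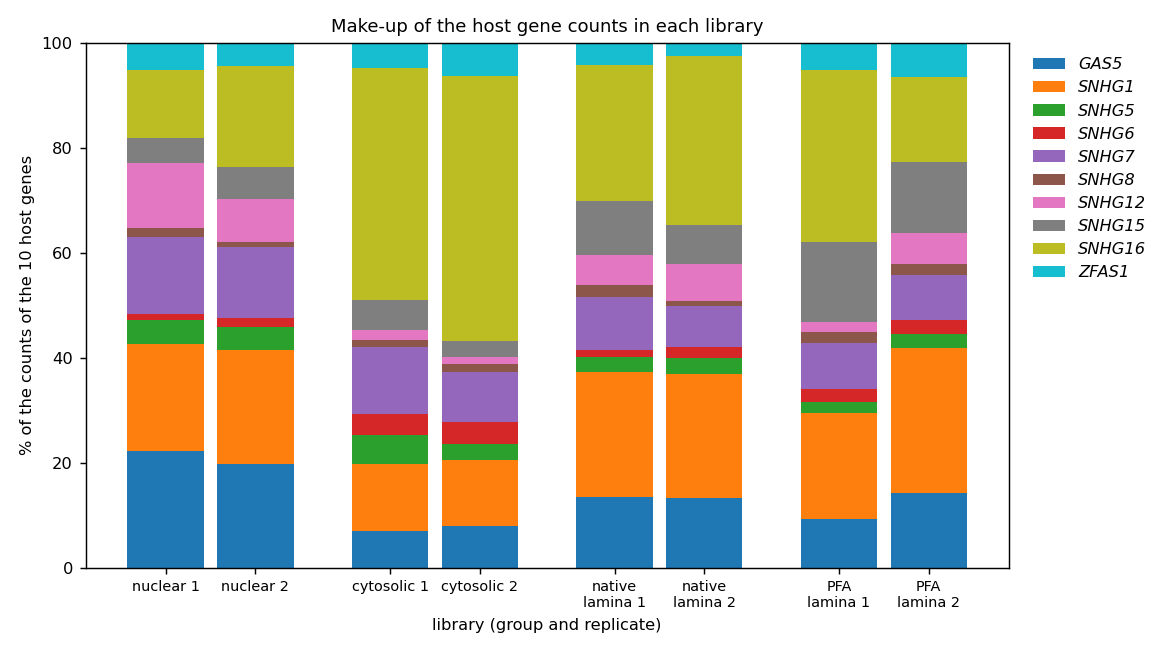
Share of each host gene (percent, stacked to 100) in the counts of the 10 host genes, for each of the 8 libraries. SNHG16 fills 44.3% and 50.5% of the cytosolic bars and 12.9% and 19.3% of the nuclear ones, while GAS5 shrinks from 22.1% and 19.6% in the nuclear bars to 6.95% and 7.85% in the cytosolic ones.

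Levels of different genes can be compared per length, as TMM CPM per kilobase of exon. In the nuclear fraction GAS5 was first at 232.7 ± 15.9 CPM per kilobase (SD, n = 2), followed by SNHG1 at 134.3 ± 25.9, and SNHG8 was last at 14.2 ± 4.78. In the cytosolic fraction SNHG16 was first at 164.2 ± 76.3 CPM per kilobase, then GAS5 at 102.9 ± 47.2 and SNHG1 at 98.1 ± 36.1, with SNHG12 last at 6.49 ± 1.20. In the native lamina SNHG1 and GAS5 were level, at 120.5 ± 2.20 and 120.2 ± 0.902 CPM per kilobase, and SNHG8 was last at 14.9 ± 8.31. In the PFA lamina the order was SNHG1 at 150.2 ± 1.54, SNHG15 at 130.7 ± 41.3 and GAS5 at 129.9 ± 8.64 CPM per kilobase, with SNHG12 last at 11.97 ± 6.99. Of the 9 neighbouring pairs in each order, the libraries overlapped for 6 of the nuclear pairs, 5 of the cytosolic pairs and 6 in each lamina preparation. The first 3 places in the PFA lamina were among them. In the nuclear fraction, the steps from GAS5 to SNHG1, from SNHG1 to SNHG5 and from ZFAS1 to SNHG6 were the ones without overlap.

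The 10 host RNAs did not move as a block over the 8 libraries, which differ in fraction, preparation and depth. Over the 45 pairs of members, Pearson's r of log2 CPM ran from -0.81 for SNHG12 with SNHG16 to 0.87 for SNHG5 with SNHG7, with a median of 0.16, and 19 pairs were negative. SNHG6 and SNHG16 were alike at 0.85 and GAS5 and SNHG12 at 0.82, as their directions between the fractions would give. ZFAS1 was closest to the mean profile of the members (0.91) and SNHG12 farthest (-0.18). Among 5671 well-counted other genes, the profiles most like that mean were those of EBP (0.93), CHEK1 (0.92), RBMX (0.91), UIMC1 (0.90) and RBM14-RBM4 (0.90), each over the same 8 libraries.

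The count tables also hold 36 rows of small RNAs that lie wholly inside a member on the same strand, 28 with box C/D symbols and 8 with box H/ACA symbols. GAS5 holds 11, SNHG1 8, SNHG12 4, SNHG16 and ZFAS1 3 each, SNHG5 and SNHG7 2 each, and SNHG6, SNHG8 and SNHG15 1 each. Of the 35 that passed the filter, 31 were called higher in the nuclear fraction than in the cytosol and none lower. Over all genes tested the shares were 26.1% and 21.2%. The rows' median log2 fold change was 2.66, against -0.01 for the hosts. With no filter on low counts 32 of all 36 were called higher, beside 20.6% of 23649 rows. Leaving out either nuclear or either cytosolic library left 18 to 20 calls. The counts are small, since 20 of the 36 rows had under 10 counts in both cytosolic libraries and 5 were at the floor of 3 counts there. A count on such a row cannot tell a mature snoRNA from an unspliced precursor of its host. For the 5 rows with bases in a host exon, it cannot tell them from spliced host RNA either.

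SNORD76, a box C/D snoRNA inside an intron of GAS5 (chr1:173835773-173835853 in hg19, 81 bases), had 134 and 117 counts in the nuclear and 9 and 10 in the cytosolic fraction, 93 and 69 in the native and 3 and 11 in the PFA lamina. Its log2 fold change between the fractions was 3.66 (SE 0.63, edgeR adjusted p = 0.0011), beside 1.18 for GAS5 itself. SNORD12B of ZFAS1 had 61 and 48 nuclear and 10 and 7 cytosolic counts, with a log2 fold change of 2.65 (edgeR adjusted p = 0.0036), where ZFAS1 had a difference of -0.55 that did not pass the test. SNORA9 of SNHG15 had 53 and 64 nuclear and 28 and 12 cytosolic counts, with a log2 fold change of 1.59 (edgeR adjusted p = 0.0173). That call was lost without cytosolic replicate 2 (1.33, edgeR adjusted p = 0.107) or nuclear replicate 2 (1.35, edgeR adjusted p = 0.106). SNORD22 of SNHG1 had 226 and 214 nuclear and 84 and 50 cytosolic counts, with a log2 fold change of 1.72 (edgeR adjusted p = 0.0063). Without cytosolic replicate 2 it was 1.66 (edgeR adjusted p = 0.0507). SNORA17B of SNHG7 did not pass the test, with 253 and 244 nuclear and 323 and 232 cytosolic counts and a difference of -0.18 (edgeR adjusted p = 0.806), which turned to 0.029 or 0.090 under a stricter filter or upper-quartile scaling. This row lies wholly in an exon of SNHG7, so reads of spliced SNHG7 RNA are counted on it too, and where the snoRNA itself lies cannot be read from it. The other tested rows not called between the fractions were SNORD50A of SNHG5, SNORA24 of SNHG8 and SNORD12C of ZFAS1.

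Set against its host, the small RNA signal separated the libraries more plainly than the hosts alone. Over all 10 hosts there were 0.548 and 0.515 small RNA counts per host count in the nuclear libraries, against 0.156 and 0.0999 for the cytosolic ones, 0.312 and 0.319 in the native lamina and 0.126 and 0.195 in the PFA lamina. For the 29 rows with no base in an exon, in the 8 hosts other than SNHG7 and SNHG12, the ratios were 0.567 and 0.510, 0.0849 and 0.0555, 0.270 and 0.306, and 0.0764 and 0.186 in the same order. The native libraries lay between the fractions and apart from both, and the PFA libraries lay nearer the cytosolic ones. Host by host, both native libraries had a higher ratio than both cytosolic ones for 8 of 10 hosts, as did the nuclear libraries, and the PFA libraries did so for none. Both PFA libraries lay below both nuclear ones for 9 of 10 hosts. The exceptions to the first count were SNHG7 and SNHG12, the hosts with a small RNA wholly inside an exon. The ratios of other hosts were not set beside these counts, so whether they are particular to the members was not tested. Some ratios rest on few counts, as for SNHG6, with 2 and 2 small RNA counts in the native and 4 and 2 in the cytosolic libraries.

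**Figure D4:**
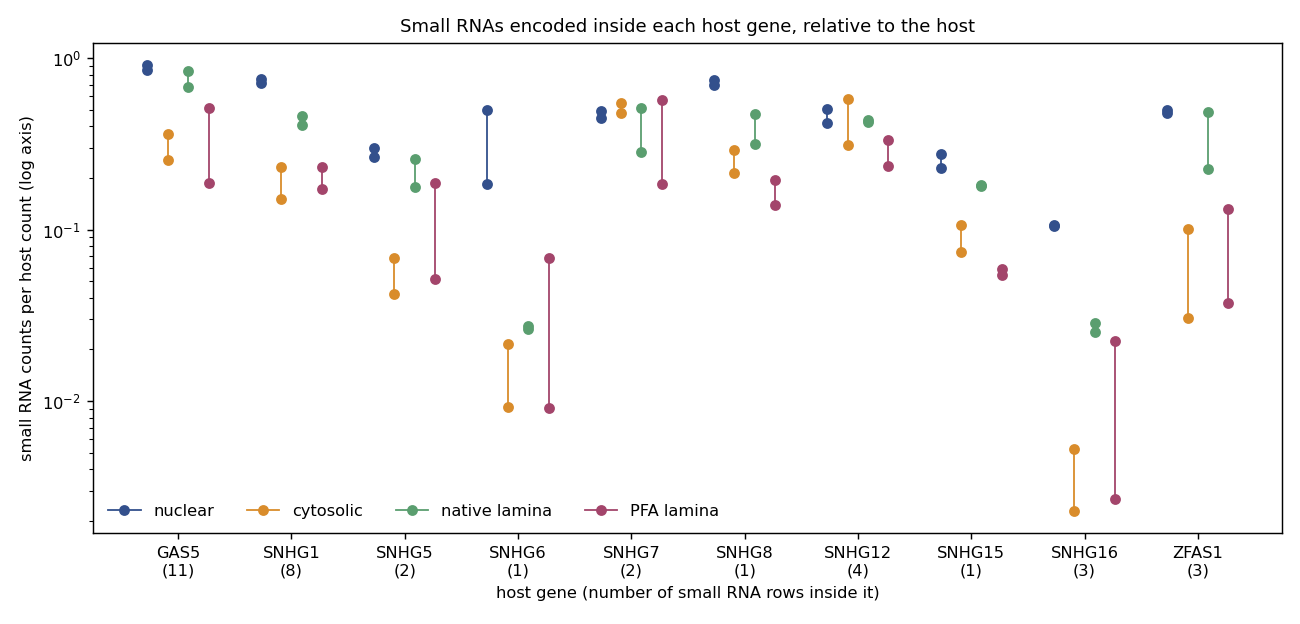
Counts on small RNA rows inside each host gene divided by the counts on the host row (log axis), with 2 points per group, one per library, joined by a line; the number of small RNA rows is under each name. The nuclear points are above the cytosolic ones for 8 of 10 hosts, the native lamina points are as well, and the exceptions are SNHG7 and SNHG12.

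By gene, the lamina comparisons of the small RNA rows gave fewer calls. The counts with a library left out, here and above, stand without the share of all genes called under that setting. Between the PFA lamina and the nuclear fraction, the rows' median log2 fold change was -2.29, against 0.23 for the hosts. There 17 of 35 rows were called lower in the PFA lamina and none higher, beside 7.81% and 9.63% of all genes tested. That count was 0 without nuclear replicate 1, 1 without nuclear replicate 2, 4 without PFA replicate 1 and 28 without PFA replicate 2. Of these, SNORD76 had a log2 fold change of -3.37 (edgeR adjusted p = 0.0089), and without nuclear replicate 1 it was -3.32 (edgeR adjusted p = 0.0957). In the native lamina 9 rows were called higher than in the cytosolic fraction and none lower, beside 6.99% and 6.77% of all genes tested. That count was 0 without either cytosolic library or without native replicate 2, and 17 without either PFA library, of which 1 was lower. The median was 1.51, or 1.48 with the one row at 0 in both cytosolic libraries set at its bound. Against the nuclear fraction 1 row was called lower in the native lamina, beside 3.44% of all genes tested. It was SNORD87 of SNHG6, at 2 and 2 counts against 24 and 15. This call was lost when any one of the 6 native and fraction libraries was left out, and with 9 rows called without either PFA library the count itself was not steady. Between the PFA lamina and the cytosolic fraction, and between the PFA and the native lamina, edgeR called no row, though without PFA replicate 2 it called 9 rows lower in the PFA than in the native lamina. MALAT1 was lower in the PFA lamina than in the nuclear fraction as well, and whether this bears on the small RNA rows was not tested.

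The way reads were counted touches some members. A read overlapping several rows was counted for each and strand was ignored. A snoRNA inside a host exon therefore adds to its host's count, and spliced host RNA adds to the count of that snoRNA. SNORA17A and SNORA17B lie wholly in exons of SNHG7, and their counts equalled 18.4% to 56.8% of those of SNHG7. SNORA61 lies wholly in an exon of SNHG12 and 88 bases of SNORA44 do, and their counts equalled 12.2% to 30.1% of those of SNHG12. With small RNA counts taken off the host rows, an alternative chosen after seeing the data, the call of SNHG12 between native lamina and cytosolic fraction was lost (1.25, edgeR adjusted p = 0.0550), and no other call of a member was. On the opposite strand, MCMDC2 shares 119 bases with SNHG6, which is 25.2% of its exonic length. MCMDC2 had 67 and 66 counts in the nuclear, 70 and 55 in the cytosolic, 14 and 44 in the native and 33 and 20 in the PFA libraries, beside 48 and 81, 187 and 218, 73 and 76, and 110 and 44 for SNHG6. Reads of the shared stretch cannot be told apart, so the nuclear level of SNHG6 in particular is uncertain. Smaller stretches are shared by GAS5 with GAS5-AS1 (41 bases), SNHG7 with FAM69B (125), ZFAS1 with ZNFX1 (42) and SNHG12 with TRNAU1AP (8).

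Genes that share the hosts' biology were set beside the members between the nuclear and cytosolic fractions. Over all genes tested, 26.1% were called higher in the nuclear fraction and 21.2% lower, and the list counts here and in the next paragraph stand beside these shares. Of 15 other long non-coding hosts tested, 7 were called higher in the nuclear fraction and 1 lower, with a median log2 fold change of 0.88. SNHG14, the very long host of the imprinted Prader-Willi snoRNA clusters, was the farthest at 4.40 (SE 1.18, edgeR adjusted p = 0.0090), a call lost without cytosolic replicate 1 or nuclear replicate 1 (4.05 and 4.06, edgeR adjusted p = 0.0677 and 0.0777). SNHG3 followed GAS5 and SNHG12 at 1.43 (SE 0.29, edgeR adjusted p = 0.0022). DANCR, the host of SNORA26, was the one called lower, at -1.29 (edgeR adjusted p = 0.0239), a call lost without any one of the 4 fraction libraries (edgeR adjusted p from 0.0667 to 0.120) and with upper-quartile scaling (-1.01, edgeR adjusted p = 0.0583). Of 31 protein-type hosts with RPL or RPS symbols, 24 were lower in the nuclear fraction and 3 higher, with a median of -1.66. The highest of that list was RPL32P3, by its symbol a pseudogene of RPL32, so that reads may be shared between them, at 2.72 (SE 0.37, edgeR adjusted p = 0.0006). Of 162 other protein-type hosts, 28 (17.3%) were higher and 48 (29.6%) lower, with a median of -0.31.

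Of 18 TOP mRNAs other than ribosomal protein mRNAs, 17 were lower in the nuclear fraction and none higher, with a median of -1.75. EEF2, the elongation factor that moves the ribosome along, was at -2.36 (SE 0.42, edgeR adjusted p = 0.0013), and it stands in the list of other protein-type hosts as well. Of the 10 members, SNHG6 and SNHG16 lay in the range of these mRNAs (-2.36 to -0.61). Of the 6 members with a pyrimidine run at the matched start, SNHG16 was called lower in the nuclear fraction and SNHG12, which has the longest run, was called higher (2.38). SNHG5, SNHG7, SNHG8 and ZFAS1 did not pass the test, with differences from -0.55 to 0.10, and the start of SNHG6 was not matched. Of 17 genes for snoRNP proteins and assembly factors, 9 were lower in the nuclear fraction and 2 higher, with a median of -0.82. FBL, the methyltransferase of box C/D particles, was at -2.35 (SE 0.37, edgeR adjusted p = 0.0008), and SNU13, which binds the box C/D motif first, at -2.20 (SE 0.32, edgeR adjusted p = 0.0007). RPAP3, a part of the assembly complex, and NOP58, a core box C/D protein, were the 2 higher ones, at 1.29 (edgeR adjusted p = 0.0111) and 1.09 (edgeR adjusted p = 0.0187). Those 2 calls were lost without 3 and 4 of the fraction libraries in turn (edgeR adjusted p from 0.0510 to 0.112). NOP58 itself carries a snoRNA gene. Of 14 nonsense-mediated decay factors, 6 (42.9%) were lower and 3 (21.4%) higher, with a median of -0.06. EIF4A3, the helicase of the exon junction complex, was at -1.49 (SE 0.28, edgeR adjusted p = 0.0015), and UPF3B, which links that complex to decay, at 1.40 (SE 0.34, edgeR adjusted p = 0.0054). When cytosolic replicate 1 was left out the latter was 1.31 (edgeR adjusted p = 0.0509).

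**Figure D5:**
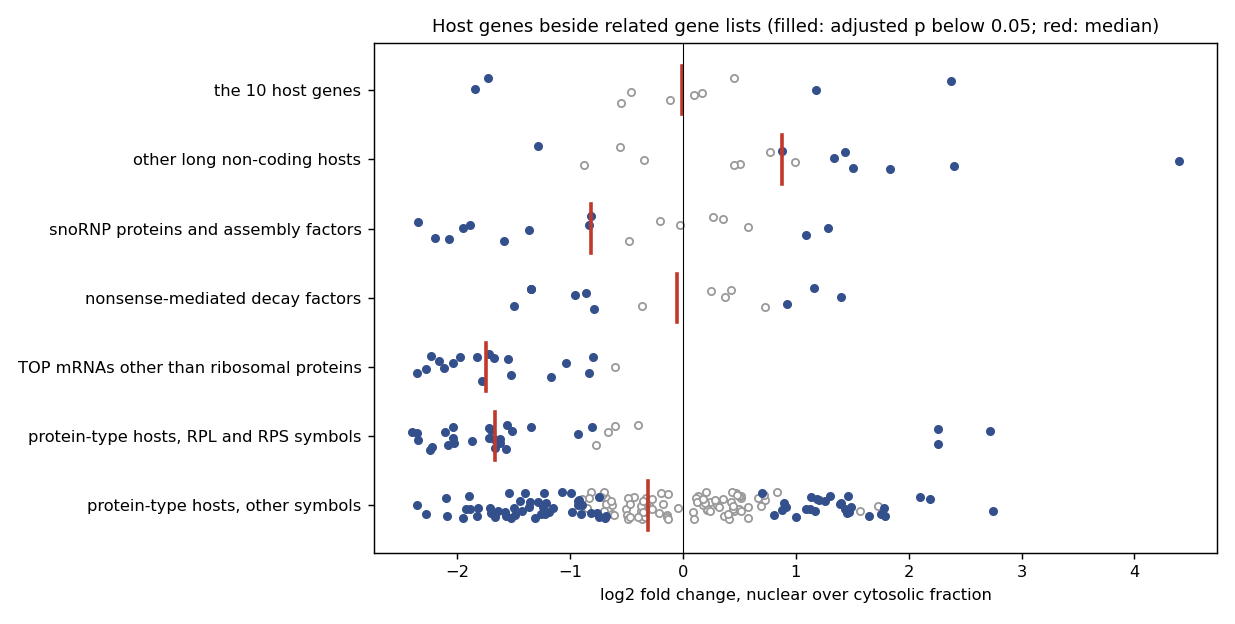
Log2 fold change between nuclear and cytosolic fraction (horizontal axis) of each tested gene in the 10 host genes and 6 related lists; points are genes, filled where the edgeR adjusted p is below 0.05, and red bars are medians. The host genes centre at -0.01 with 2 filled points on either side, the other long non-coding hosts at 0.88, and the ribosomal protein hosts and TOP mRNAs at -1.66 and -1.75.

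In the native lamina, 2 of the 15 other long non-coding hosts were called lower than in the nuclear fraction, SNHG3 at -1.20 (edgeR adjusted p = 0.0302) and SNHG19 at -2.11 (edgeR adjusted p = 0.0387), and none higher. Of all genes tested, 3.44% were called lower there and 3.87% higher. Between the PFA lamina and the nuclear fraction, 1 of the 15 was called higher and 3 lower, beside 9.63% and 7.81% of all genes. Between the native lamina and the cytosolic fraction, 1 was higher and 3 lower, beside 6.99% and 6.77%. The higher one was SNHG17, at 1.32 (edgeR adjusted p = 0.0147). SNHG17 was also called higher in the PFA lamina than in the cytosolic fraction, at 2.07 (SE 0.30, edgeR adjusted p = 0.0312). These 2 comparisons of SNHG17 share the cytosolic libraries. Its nuclear level was called higher than its cytosolic one as well (1.83). Each of the 4 lamina calls named here, of SNHG3, SNHG19 and SNHG17, was lost without at least 3 of the 8 libraries in turn. SNHG17 and SNHG15 were the 2 called, among the 10 members and the 15 other long non-coding hosts, higher in the PFA lamina than in the cytosolic fraction.

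None of the 10 members touched a lamina-associated domain that the authors listed for HCT116, a colorectal carcinoma line, in G1, S or G2. Of 23252 rows with counts, 4.29%, 3.63% and 5.71% did so in the 3 stages. SNHG5 was nearest, 211.55 kb from a domain in G1 and in G2. The domains and the RNA come from different lines.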

How the data were processed

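Reads per gene symbol had been counted by the authors with featureCounts 1.5.2 against RefFlat rows of hg19, per the file headers. The headers set no strand and count a read for every row it overlaps. TopHat2 2.1.1 and Bowtie2 2.3.2 are named in the submitters' processing notes, with no role given. In the header of cytosolic replicate 1 the input bears that label but the output name is that of nuclear replicate 1, and the label was kept. The authors' HCT116 domain lists hold coordinates only. Columns 2 and 3 of those lists, start and end, were used with no other value.

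Counts of all 8 libraries were fitted with edgeR 4.0.16 (R 4.3.3): TMM factors, filterByExpr by group, 1 coefficient per group, quasi-likelihood test, 6 contrasts and Benjamini-Hochberg adjustment over 16504 genes, with a call below 0.05. The standard error of a log2 fold change was its size over the square root of F. In data simulated from these libraries for the nuclear against cytosolic comparison the script was tested with known changes. Alternatives were DESeq2 1.42.0, other scalings and filters, a replicate block, only the 4 libraries compared, and leaving out each library. Small RNAs were rows inside a member on its strand. The genes named are the members, their small RNAs and, in each list, called genes farthest from 0, of which 1 is not reported here; SNHG3, SNHG17 and the single small RNAs were picked after their values were seen. The members and lists were chosen with earlier results of these data known. Same-numbered libraries were not taken as pairs. Samples of K562 and HCT116 chromatin were not used here.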

Additional observations from a re-analysis of the deposited data

How the results depend on the processing

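Of 1020 log2 fold changes of members under an alternative setting, 901 kept their direction and their side of the threshold, 47 lost a call, 43 gained one and 29 changed sign. None of the 12 called values changed sign. Total-count scaling moved the median of all genes by 0.29 in the native comparisons with either fraction and by 0.17 in those of the PFA lamina; upper-quartile scaling moved it by 0.27 between the fractions. With total counts the value for native lamina against nuclear fraction was 0.14 for SNHG1 and 0.12 for SNHG6, and SNHG16 was at -0.012 between the preparations. SNHG5 between the fractions was at 0.092 with at least 10 counts in every library and 0.15 with upper-quartile factors, SNORA17B at 0.029 and 0.090, and SNHG8 in native lamina against nuclear fraction at -0.029 and -0.081.

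Members called in native lamina against nuclear fraction rose from 0 to 2 with DESeq2, 2 with upper-quartile factors, 3 with at least 10 counts, 3 with no filter and 4 with only the 4 libraries compared. DESeq2 called 4.67% of all genes lower there. Apart from that and the no-filter shares below, shares of all genes were not set beside the counts in this and the next 2 paragraphs. A rise or fall in those counts cannot be told from one over all genes. In native lamina against cytosolic fraction total counts left 2 of 4. In PFA lamina against nuclear fraction total counts left 1 of 3 and only the 4 libraries left 0; against the cytosolic fraction DESeq2 and no filter gave 2 and DESeq2 size factors 0, in place of 1. Small RNA rows called fell to 5 of 6 tested (nuclear against cytosolic), 3 of 6 (native against cytosolic) and 4 of 6 (PFA against nuclear) with at least 10 counts. With no filter they were 14 in native against cytosolic, 4 in native against nuclear and 2 between the preparations. Of all rows in that setting, 7.83% were called higher and 6.53% lower, 5.24% and 6.21%, and 0.52% and 0.63%, in the same order. With only the 4 libraries they were 14 in native against nuclear and 2 in PFA against nuclear; total counts gave 0 and 8 there, and upper-quartile factors 2 in the former.

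Same-numbered libraries correlated in their deviations at -0.07 to 0.32, and nothing in the labels pairs them. With the replicate number as a block, SNHG7 was called in native lamina against nuclear fraction (1 member in place of 0; small RNA rows 4 in place of 1), and 5 members in place of 4 against the cytosolic fraction; the number of members called in the other comparisons was the same.

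Leaving out each library in turn, where a lone library is assumed to vary like the other groups, gave 2 to 4 members called between the fractions, 0 to 4 in native against nuclear, 0 to 6 in native against cytosolic, 0 to 3 in PFA against nuclear, 0 to 4 in PFA against cytosolic and 0 to 1 between the preparations. Small RNA rows called ran in the same order from 18 to 33, 0 to 9, 0 to 17, 0 to 28, 0 to 4 and 0 to 9. Values that changed sign were, between the fractions, SNHG5 (-0.29 to 0.020), SNHG7 (-0.090 to 0.27), SNHG15 (-0.23 to 0.47) and ZFAS1 (-1.04 to 0.13). In native against nuclear they were SNHG1 (-0.34 to 0.071), SNHG6 (-0.57 to 0.34) and SNHG8 (-0.64 to 0.56), and in native against cytosolic GAS5 (-0.19 to 0.78), SNHG1 (-0.041 to 0.73) and SNHG8 (-1.12 to 0.10). In PFA against nuclear they were SNHG1 (-0.028 to 0.38) and SNHG16 (-0.24 to 1.26), in PFA against cytosolic GAS5 (-0.081 to 0.89), SNHG8 (-0.058 to 0.80) and ZFAS1 (-0.73 to 0.44), and between the preparations SNHG5 (-0.13 to 0.064) and SNHG16 (-0.77 to 0.73). Apart from smaller tables and fewer samples, which follow from the settings themselves, the cause of these moves was not tested. There were 2 libraries a group and counts below 10 on many small RNA rows. Changes near 1 on the log2 scale fell on either side of the threshold. SNHG5, for example, was called at -1.01 in native against cytosolic and not at -1.02 in PFA against cytosolic.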
